A study of Homo sapiens with 4 samples.

Results

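The genes described here are 37 genes of glucose breakdown, lactate handling and the response to low oxygen, followed by RNA-Seq in 2 established human melanoma cell lines. They were chosen by gene name, as glycolytic enzymes, lactate transporters, and HIF1A with its targets and regulators, and all 37 were found among the 17755 genes of the expression table. SK-MEL-28 and A375 cells were each transfected with a control siRNA (siNC) or with siRNA against LINC00622 (siLINC00622), a long noncoding RNA. In all 4 conditions the transfection ran for 6 h in medium lacking serum and was followed by 24 h with 10% serum, and the labels name no low-oxygen treatment. Each condition is 1 library of poly(A) RNA, so each line is 1 cell line without biological replicates, and which of the study's siRNA sequences was used is not given in the labels.

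In glycolysis, glucose enters the cell through transporters, is phosphorylated by hexokinase and is split and oxidised to pyruvate. Lactate dehydrogenase turns pyruvate into lactate, which leaves through monocarboxylate transporters. HIF1A is the oxygen-regulated subunit of the transcription factor HIF-1. EGLN prolyl hydroxylases mark it for degradation when oxygen is present. When oxygen is scarce, the stabilised protein raises the transcription of many glycolytic genes and of genes for pH control, vessel growth and mitochondrial turnover. HIF1A is controlled largely at the protein level, which these data do not measure. Tumor cells often use glycolysis also when oxygen is present.

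The libraries held from 31269923 to 36384819 counts, and 99.7% to 99.8% of them fell on listed genes. The 8 melanocyte-lineage markers were all listed, with a summed FPKM (the library-scaled count divided by gene length) of 2061 and 2210 in SK-MEL-28, against 133 and 166 in A375. Most of the A375 sum was SOX10, at 118 and 149 FPKM. Of the pigmentation markers there, PMEL was at 2.24 and 2.35 FPKM, MLANA at 0.982 and 0.881, DCT at 0.645 and 0.623 and TYR at 0.21 and 0.233. TYRP1 was low in both lines, at 0.744 and 0.956 FPKM in SK-MEL-28, against 0.111 and 0.0441 in A375. Of the markers of fibroblasts, leukocytes and endothelium, 1 of 6, 1 of 5 and 1 of 4 were listed, and 4 of 6 of keratinocytes. In that order, their summed FPKM over the 4 libraries was 2.24 to 9.8, 0.158 to 2.32, 0.0185 to 1.66 and 20.9 to 33.4. Most of the keratinocyte sum was KRT10, at 19.0 to 26.3 FPKM. LINC00622 (ENSG00000260941), the targeted gene, had 309 counts under siNC and 135 under siLINC00622 in SK-MEL-28. In A375 it had 135 and 86 counts. The log2 ratios, -1.21 for SK-MEL-28 and -0.84 for A375, were below 0 in both lines, with an adjusted p of 0.113 in the edgeR fit over the 4 libraries. Here and throughout, the 2 counts, FPKM values or shares of a line stand in the order siNC, siLINC00622, and 2 log2 ratios in the order SK-MEL-28, A375 unless a line is named.

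The first comparison asked whether the 37 genes differed between siLINC00622 and siNC. None of the 37 passed an adjusted p of 0.05 in the edgeR quasi-likelihood fit, which takes the 2 lines as the replicates of the treatment and has 1 residual degree of freedom. At an unadjusted p below 0.05 the fit had 4 members, which were SLC2A3, PFKFB4, PFKL and HIF1A, each higher with siLINC00622 in both lines. Of all 16258 genes tested, 7.53% were higher and 7.07% lower with siLINC00622 at that unadjusted threshold, and 0.08% and 0.148% at the adjusted one. DESeq2's Wald test on the same design called 2 of the 31 members to which it gave an adjusted p, SLC2A3 and PFKFB4, both higher. Of the 8693 genes with an adjusted p from DESeq2, it called 1.74% higher and 1.86% lower. In bulk RNA, fewer cells that express a gene and less of its RNA per cell cannot be told apart.

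Within a line, where 1 library stands against 1, no test was possible, and a gene was counted as past the limit when its scaled ratio was over 1.5-fold with at least 10 counts in 1 of the 2 libraries. In SK-MEL-28, 4 of the 36 members with enough counts were higher (SLC2A3, PFKFB4, ALDOC and ADM), and 1 was lower (BNIP3L). Over all 15442 genes with enough counts in that line, 4.56% were higher and 6.49% lower. In A375, 1 of 37 members was higher (SLC2A3) and 1 was lower (EGLN3), against 4.52% higher and 4.34% lower of 16021 genes. The members' log2 ratios had a median of 0.10 for SK-MEL-28 and 0.02 for A375, beside -0.0040 and 0.0043 for all genes. The median size of the log2 ratio, whatever its sign, was 0.12 and 0.10 for the members and 0.19 and 0.18 for all genes. Of the 36 members with enough counts in both lines, 16 had ratios above 0 in both, 3 had ratios below 0 in both and 17 had opposite signs. Among all 14721 genes with enough counts in both lines, these numbers were 4549, 4606 and 5566. The same direction in both lines was thus seen for 52.8% of members and 62.2% of all 14721 such genes.

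**Figure D1:**
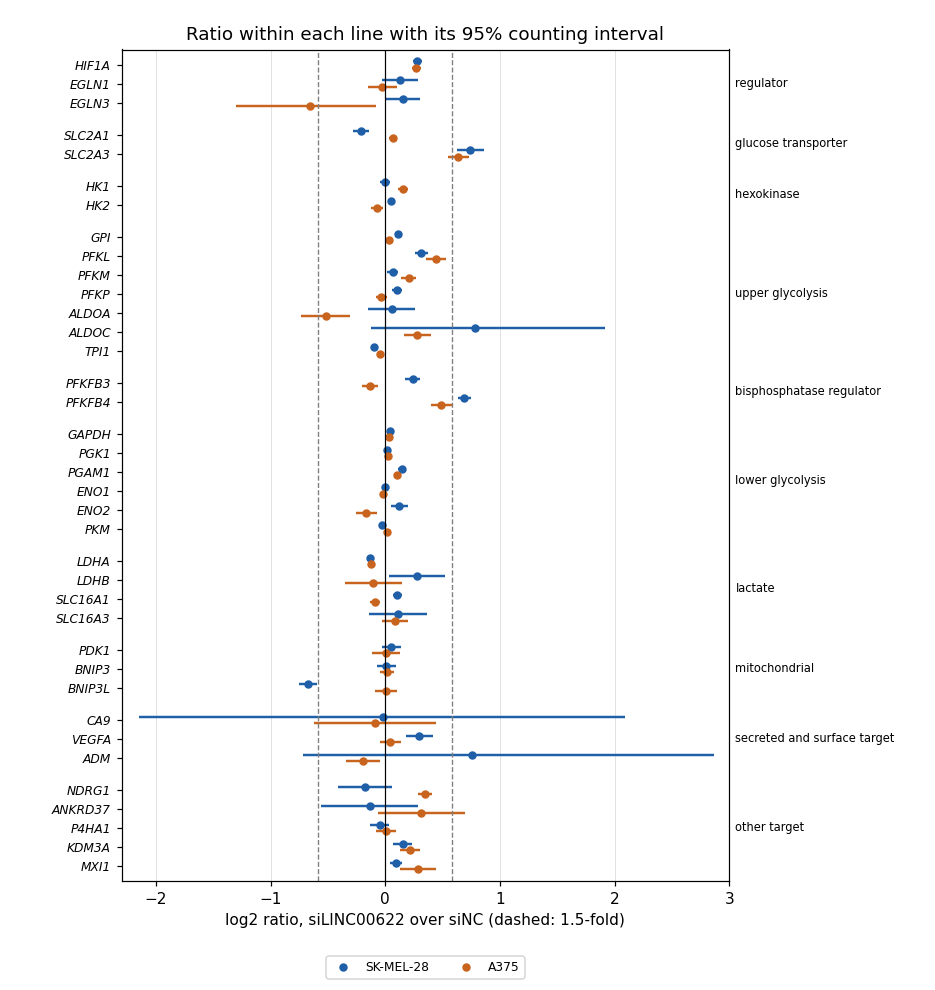
Log2 ratio of siLINC00622 over siNC (x axis) for each of the 37 genes (rows, grouped by role), with SK-MEL-28 in blue and A375 in orange. Points are ratios of 1 library over 1, bars are 95% Clopper-Pearson intervals that cover counting error only, and dashed lines mark 1.5-fold. SLC2A3 lies beyond the right dashed line in both lines, at 0.74 and 0.64, and the abundant enzymes of lower glycolysis other than ENO2 lie within 0.15 of 0.

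Of the 2 glucose transporters, SLC2A3 (ENSG00000059804), which encodes GLUT3, was the 1 member of 36 past the limit in both lines. Of all 14721 genes with enough counts in both lines, 102 were past it upwards in both and 161 downwards in both. It had 964 counts under siNC and 1648 under siLINC00622 in SK-MEL-28, against 1451 and 2612 counts in A375. Each siLINC00622 library was above the siNC library of its own line. This was 1.67-fold for SK-MEL-28 (log2 0.74, counting interval 0.63 to 0.86) and 1.56-fold for A375 (log2 0.64, interval 0.54 to 0.73), a mean log2 ratio of 0.69 ± 0.07 (SD, n = 2 lines). The adjusted p was 0.0594 with edgeR, 0.03 with edgeR when no filter on low counts was used and 0.00141 with DESeq2. By edgeR it was 0.1 when scaled by library totals alone and 0.136 with at least 50 counts in 2 libraries. Without the line block it did not pass either. SLC2A1, which encodes GLUT1, had 3531 and 3120 counts in SK-MEL-28, against 11582 and 14015 in A375. Its log2 ratios, -0.21 and 0.07, had opposite signs in the lines.

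PFKFB4 and PFKFB3 encode enzymes that make and remove fructose 2,6-bisphosphate, the activator of phosphofructokinase. PFKFB4 (ENSG00000114268) had 4107 counts under siNC and 6766 under siLINC00622 in SK-MEL-28, against 1438 and 2335 in A375. The log2 ratios were 0.69 (interval 0.63 to 0.74) for SK-MEL-28 and 0.49 (interval 0.39 to 0.59) for A375, a mean of 0.59 ± 0.14 (SD, n = 2 lines). The adjusted p was 0.0816 by edgeR, 0.0425 by edgeR without the filter on low counts and 0.000791 by DESeq2. By edgeR it was 0.126 when scaled by library totals alone and 0.167 with at least 50 counts in 2 libraries. Without the line block it did not pass either. In GENCODE 29, 289 of the 6107 exon bases of PFKFB4 also belong to UCN2 on the same strand, and UCN2 had 6328 and 7017 counts in SK-MEL-28, against 360 and 495 in A375. The part of this overlap in the PFKFB4 values was not tested. PFKFB3 had 3362 and 4052 counts in SK-MEL-28, against 2981 and 3144 in A375, with log2 ratios of 0.24 and -0.13.

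Among the enzymes of upper glycolysis, PFKL, the liver-type phosphofructokinase, was higher under siLINC00622 in both lines. It had 3989 and 5071 counts in SK-MEL-28, against 1896 and 2979 in A375, log2 ratios of 0.31 and 0.44 (mean 0.38 ± 0.09, SD, n = 2 lines) and an adjusted p of 0.141 by edgeR. The other phosphofructokinase genes, PFKM and PFKP, had log2 ratios of 0.07 and 0.10 in SK-MEL-28, against 0.20 and -0.03 in A375. ALDOC, an aldolase, passed the limit in SK-MEL-28 on 14 and 26 counts, and its interval there, -0.13 to 1.91, includes 0. In A375, where ALDOC had 1040 and 1461 counts, its log2 ratio was 0.28. GPI, which converts glucose 6-phosphate to fructose 6-phosphate, was at 0.11 and 0.03. TPI1, which interconverts the 2 triose phosphates, was at -0.10 and -0.04. The hexokinase genes HK1 and HK2 stayed under the limit in both lines, with log2 ratios of -0.0018 and 0.05 in SK-MEL-28, against 0.16 and -0.07 in A375.

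ALDOA encodes an aldolase that is usually abundant, yet it had 374 and 397 counts in SK-MEL-28, against 411 and 331 in A375. Its log2 ratio in A375 was -0.52 (interval -0.74 to -0.31) and in SK-MEL-28 0.05. LDHB, a lactate dehydrogenase subunit, had as few as 252 and 312 counts in SK-MEL-28, against 263 and 283 in A375, with log2 ratios of 0.27 and -0.10. Both genes share exon bases with another gene on the same strand in GENCODE 29, ALDOA with AC093512.2 over 1657 of 3916 bases and LDHB with AC010197.2 over 997 of 2983. AC093512.2 had between 46 and 95 counts in the 4 libraries. The part of these overlaps in the counts was not tested, and levels of ALDOA and LDHB are given with that limit.

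The 6 genes of lower glycolysis include the most abundant members, and none passed the limit in either line. GAPDH, which encodes glyceraldehyde 3-phosphate dehydrogenase and served as the reference gene of the study's qPCR, had 85874 and 90264 counts in SK-MEL-28, against 114367 and 135541 in A375. Its log2 ratio was 0.04 in both lines. PGK1, phosphoglycerate kinase, was at 0.01 and 0.02, and ENO1, the main enolase, at -0.01 and -0.02. PKM, pyruvate kinase, was at -0.02 and 0.02. PGAM1, phosphoglycerate mutase, was at 0.15 and 0.10, above 0 in both lines. ENO2, the enolase named for neurons, had log2 ratios of 0.12 and -0.17, on opposite sides of 0.

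At the lactate step, LDHA, the subunit that favours lactate formation, had 63983 and 59571 counts in SK-MEL-28, against 42885 and 45590 in A375. The log2 ratios were -0.13 (interval -0.15 to -0.12) for SK-MEL-28 and -0.12 (interval -0.14 to -0.10) for A375, with an adjusted p of 0.492 by edgeR. The counting interval thus lies below 0 in both lines, which says nothing of the spread between cultures. The lactate transporter genes SLC16A1 (MCT1) and SLC16A3 (MCT4) had log2 ratios of 0.10 and 0.11 in SK-MEL-28, against -0.09 and 0.09 in A375.

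HIF1A (ENSG00000100644) itself had 9152 counts under siNC and 11338 under siLINC00622 in SK-MEL-28, against 10061 and 14041 in A375. Its log2 ratios were 0.28 (interval 0.24 to 0.32) for SK-MEL-28 and 0.27 (interval 0.23 to 0.31) for A375, a 1.21-fold ratio in each, with an adjusted p of 0.183 by edgeR and 0.106 by DESeq2. EGLN1, the main prolyl hydroxylase of HIF1A, had 613 and 684 counts in SK-MEL-28, against 959 and 1088 in A375, with log2 ratios of 0.13 and -0.03 whose intervals include 0. EGLN3, a prolyl hydroxylase that is itself induced by HIF, had 675 and 768 counts in SK-MEL-28 but 57 and 41 in A375. It was past the limit in A375 at -0.66 (interval -1.30 to -0.08), and its log2 ratio in SK-MEL-28 was 0.15.

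The HIF targets that act at mitochondria are PDK1, which inhibits pyruvate dehydrogenase, and the mitophagy receptors BNIP3 and BNIP3L. BNIP3L had 3452 counts under siNC and 2208 under siLINC00622 in SK-MEL-28, against 1639 and 1901 in A375. Its log2 ratios were -0.68 (interval -0.75 to -0.60) for SK-MEL-28 and 0.0044 (interval -0.09 to 0.10) for A375. The values of the lines lie apart by more than counting error, but the difference between them could not be tested with 1 library per condition. BNIP3 was at 0.01 in both lines and PDK1 at 0.05 and 0.01.

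The other HIF targets did not share a direction. ADM, the vasodilator peptide adrenomedullin, passed the limit in SK-MEL-28 on 5 and 10 counts, with an interval of -0.71 to 2.87, and had 734 and 743 counts in A375, a log2 ratio of -0.19. VEGFA, the vascular growth factor, had 1040 and 1305 counts in SK-MEL-28, against 1841 and 2195 in A375, with log2 ratios of 0.30 and 0.04. CA9, a surface carbonic anhydrase that is among the most oxygen-responsive HIF targets, had 5 and 5 counts in SK-MEL-28, too few for the count limit, and 59 and 64 in A375. NDRG1, a stress-induced gene, had log2 ratios of -0.18 on 320 and 289 counts in SK-MEL-28 and of 0.35 on 3521 and 5184 counts in A375. KDM3A, a histone demethylase, was at 0.15 and 0.22, and MXI1, a MYC antagonist, at 0.09 and 0.29. P4HA1, a collagen prolyl hydroxylase subunit, was at -0.05 and 0.01. ANKRD37, with 93 to 145 counts in the 4 libraries, was at -0.13 and 0.31, and both intervals include 0. In GENCODE 29, 909 of its 2580 exon bases overlap UFSP2 on the opposite strand, and the library kit does not mark strand.

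A wider list of 79 other genes of glycolysis, pyruvate entry, HIF regulation and hypoxia, of which 66 were in the table, was set beside the members. In SK-MEL-28, 5 of the 65 with enough counts were past the limit upwards and 4 downwards, against 4.56% and 6.49% of all genes. In A375 the counts were 3 and 1 of 63, against 4.52% and 4.34% of all genes. In the edgeR fit over both lines none of the 66 had an adjusted p below 0.05. At an unadjusted p below 0.05, 13 were higher and 5 lower with siLINC00622, against 7.53% and 7.07% of all genes. DESeq2 called 2 higher and 1 lower of the 43 with an adjusted p, against its 1.74% and 1.86% of all genes. The median log2 ratio of the list was 0.04 in each line. TMEM45A was the one gene of the list past the limit the same way in each line with 50 counts or more, from 351 to 547 counts in SK-MEL-28 (log2 ratio 0.61) and from 109 to 247 in A375 (log2 ratio 0.96, adjusted p 0.128 by edgeR). At the limit of 10 counts, 102 of all 14721 genes were past the fold limit upwards in both lines and 161 downwards. The partners and regulators of HIF1A on the list had none of 9 past the limit in either line. With the shares of all genes above, 9 genes are too few for this to set them apart.

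The second comparison set the lines against each other over both treatments. Here most members differed, with 18 of 37 higher in SK-MEL-28 and 11 lower at an adjusted p below 0.05 in the edgeR fit. Of the 16258 genes tested, SK-MEL-28 was higher for 33.8% and lower for 35.1%. The size of the log2 difference had a median of 0.61 for the members and 0.69 for all genes. The 2 libraries of a line differ in treatment, and the fit has a term for treatment. This test thus measures the lines' difference against how far line differences vary between the treatments, and not between cultures. The fit draws the spread of each gene towards a trend over all genes, so a p-value does not rest on that gene's own spread alone. Of the 29 differing members, 18 kept their direction and an adjusted p below 0.05 under all 9 alternatives tried, 11 of them higher and 7 lower in SK-MEL-28. The other 11, HK1, GPI, PFKP, PFKFB3, P4HA1, KDM3A, BNIP3L, EGLN1, GAPDH, SLC2A3 and VEGFA, lost the call in 1 to 7 alternatives. With the treatment term dropped and all 4 libraries kept, SLC2A3, PFKP, KDM3A and HK1 lost it. Each of the 11 lost it in 1 or more fits that dropped this term and also left out 1 library, where 1 line is a single library assumed to vary like the libraries of the other line. For all genes, the share that kept its call under the 9 alternatives is not given here, so the members' stability has no background beside it. Of the 66 other genes of the pathway, SK-MEL-28 was higher for 33 and lower for 21.

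**Figure D2:**
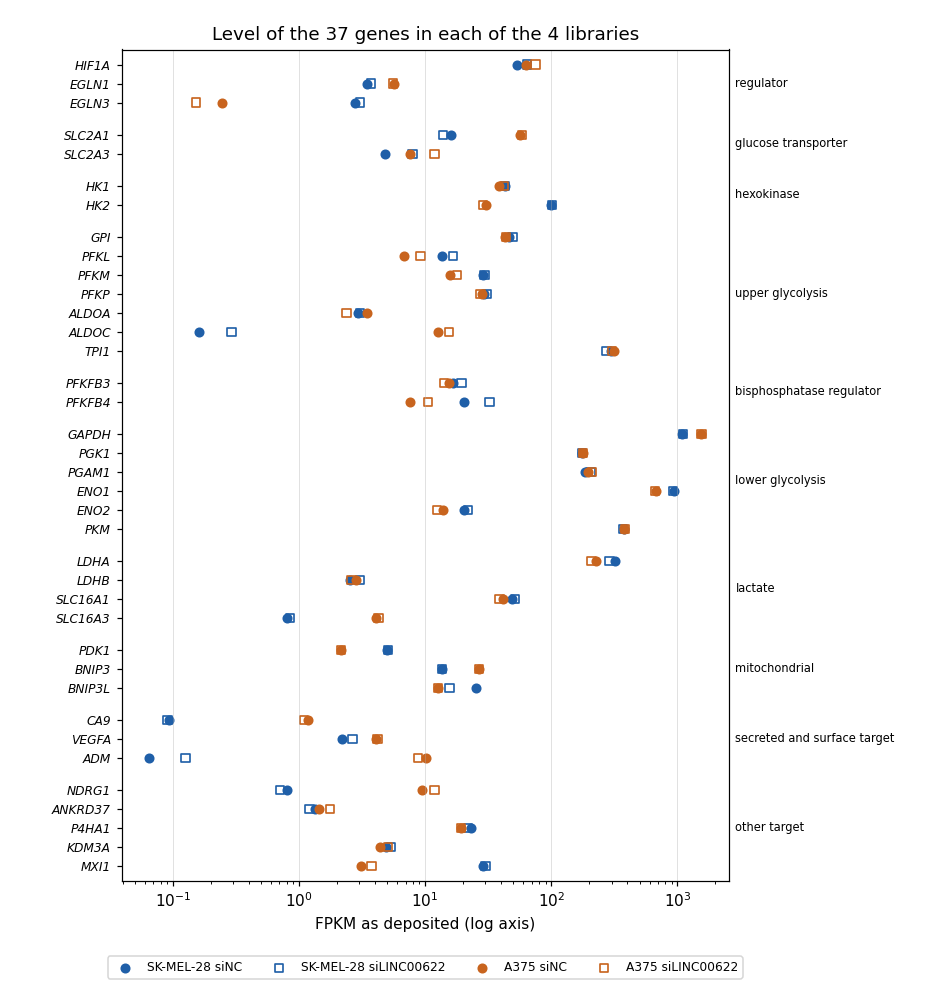
FPKM of each of the 37 genes as deposited (x axis, log scale) in the 4 libraries, with SK-MEL-28 in blue, A375 in orange, siNC as filled circles and siLINC00622 as open squares. GAPDH and ENO1 are the highest members in every library, and ADM, ALDOC, NDRG1 and EGLN3 are among those whose libraries separate most by line.

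The level of the members, per length, spanned a wide range. GAPDH was highest, at 1082 and 1103 FPKM in SK-MEL-28, against 1526 and 1555 in A375, and it ranked between place 11 and place 17 of all listed genes. ENO1 followed, at 935 and 922 FPKM in SK-MEL-28, against 677 and 663 in A375. PKM, TPI1, LDHA, PGAM1 and PGK1 were each between 175 and 382 FPKM in every library. In SK-MEL-28 the lowest members were ADM, CA9 and ALDOC, all below 0.3 FPKM. EGLN3 was lowest in A375, at 0.248 and 0.153.

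**Figure D3:**
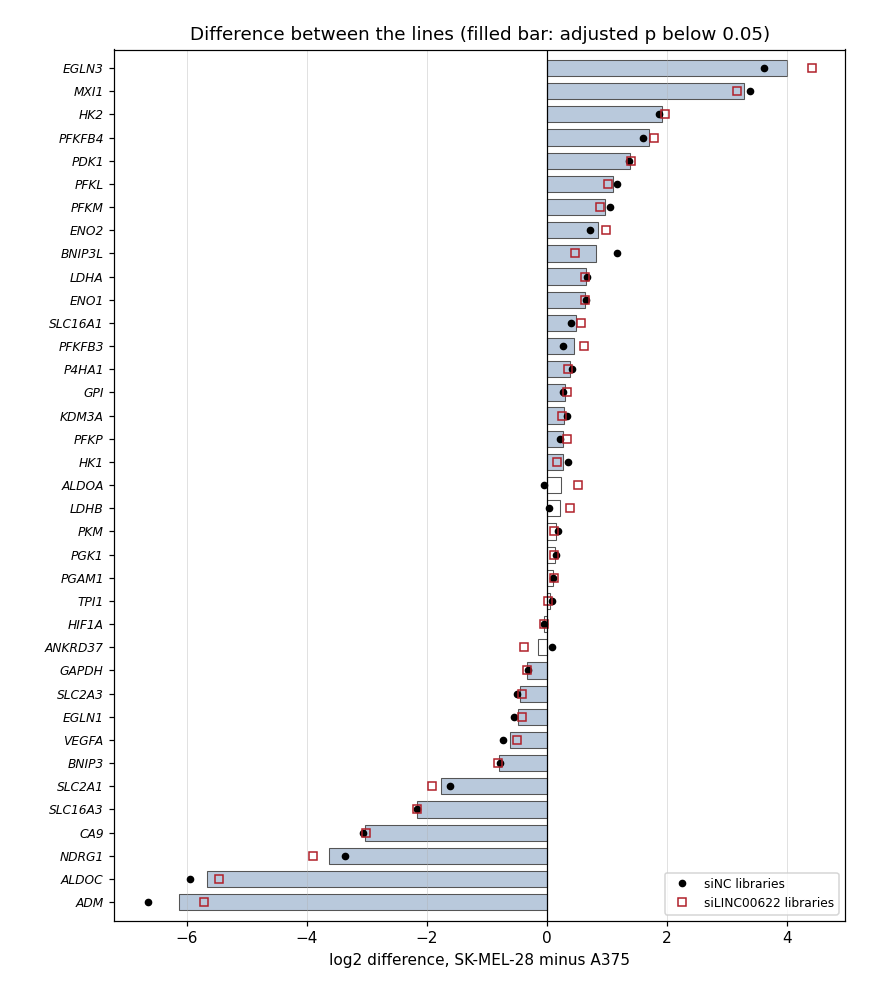
Log2 difference of SK-MEL-28 minus A375 (x axis) for each member, in order of its size. Bars are the edgeR estimate over both treatments, filled where the adjusted p is below 0.05, black circles are the siNC libraries alone and red squares the siLINC00622 libraries alone. EGLN3 and MXI1 stand at the top, at 3.99 and 3.27, and ALDOC and ADM at the bottom, at -5.67 and -6.13.

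The 2 EGLN genes differed between the lines in opposite ways, and HIF1A did not pass the test in the main fit. HIF1A was at 53.7 and 64.4 FPKM in SK-MEL-28, against 62.5 and 74.9 in A375. It was lower in SK-MEL-28 under each treatment, although the ranges overlap, with a log2 difference of -0.05 (adjusted p 0.575, edgeR). With library totals in place of the TMM scaling it was called lower in SK-MEL-28, at -0.22 (adjusted p 0.0401, edgeR). That change moved the median of all genes from -0.03 to -0.20. EGLN3 was at 2.77 and 3.05 FPKM in SK-MEL-28 against 0.248 and 0.153 in A375, which is 15.9-fold higher in SK-MEL-28 (adjusted p 1.33e-05, edgeR). EGLN1 was at 3.44 and 3.72 FPKM in SK-MEL-28, against 5.70 and 5.56 in A375, 1.40-fold lower in SK-MEL-28 (adjusted p 0.00641, edgeR).

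Glucose uptake genes were lower in SK-MEL-28 and hexokinase 2 was higher. SLC2A1 was at 16.1 and 13.8 FPKM in SK-MEL-28, against 56.0 and 58.2 in A375, which is 3.41-fold lower in SK-MEL-28 (adjusted p 1.47e-05, edgeR). SLC2A3, at 4.80 and 7.95 against 7.64 and 11.8 FPKM, was lower in SK-MEL-28 under each treatment, although the ranges of the lines overlap (log2 difference -0.45, adjusted p 0.00534, edgeR). With the treatment term dropped, its adjusted p was 0.234 on all 4 libraries (log2 difference -0.45, edgeR). Of the fits that also left out 1 library, 3 did not pass, with log2 differences of -0.11 without the siNC library of SK-MEL-28, -0.74 without the siNC library of A375 and -0.08 without the siLINC00622 library of A375. HK2, the inducible hexokinase, was at 98.7 and 101 FPKM in SK-MEL-28, against 30.6 and 28.9 in A375, 3.78-fold higher in SK-MEL-28 (adjusted p 4.34e-06, edgeR). HK1, the hexokinase that most tissues express, was at 43.2 and 42.7 against 38.3 and 42.4 FPKM (adjusted p 0.0336, edgeR), a call lost under 6 of 9 alternatives.

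The make-up of the isozyme families differed with these levels. HK2 held 69.6% and 70.3% of the summed FPKM of HK1 and HK2 in SK-MEL-28, against 44.4% and 40.5% in A375. With counts divided by the length of the longest GENCODE 29 transcript, an alternative chosen after the data were seen, the shares of HK2 were 59.8% and 60.7% in SK-MEL-28, against 34.2% and 30.7% in A375. PFKFB4 held 55.0% with siNC and 62.6% with siLINC00622 of the summed FPKM of PFKFB3 and PFKFB4 in SK-MEL-28, against 32.6% and 42.6% in A375. SLC2A3 held 22.9% and 36.5% of the transporter pair in SK-MEL-28, against 12.0% and 16.9% in A375, higher with siLINC00622 in both lines. ENO1 held 97.7% to 98.2% of the enolase pair in all 4 libraries.

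**Figure D4:**
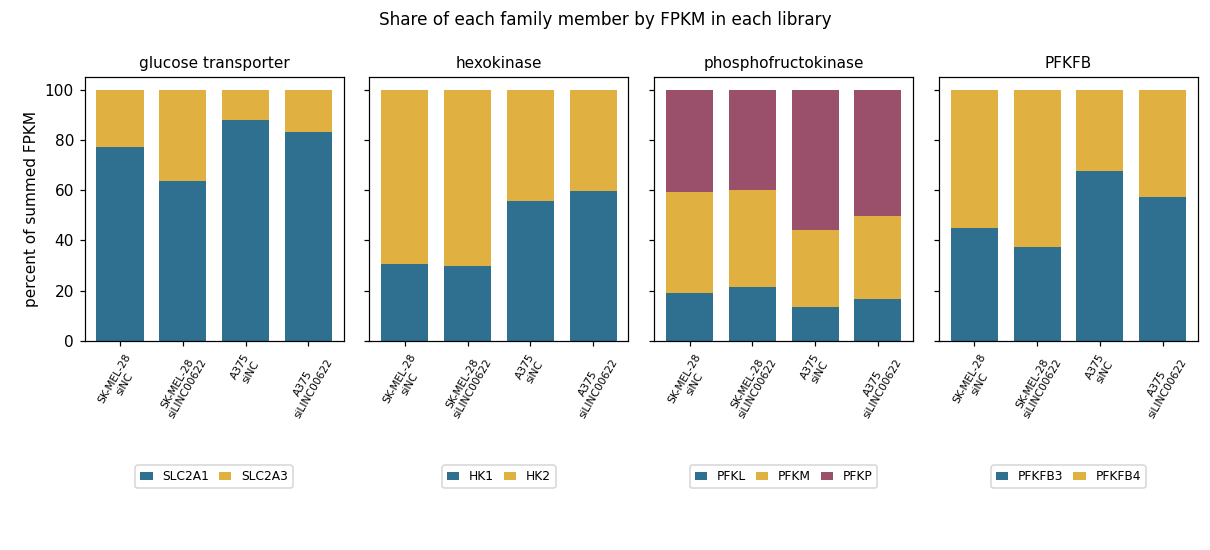
Percent of the summed FPKM (y axis) that each gene holds in 4 families, in the 4 libraries (x axis). HK2 holds 69.6% and 70.3% of the hexokinase pair in SK-MEL-28, against 44.4% and 40.5% in A375, and the shares of SLC2A3 and PFKFB4 are larger in the siLINC00622 library of each line.

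In upper glycolysis, PFKL was at 13.5 and 16.6 FPKM in SK-MEL-28, against 6.79 and 9.17 in A375, 2.13-fold higher in SK-MEL-28 (adjusted p 7.57e-05, edgeR). PFKM, the muscle-type gene, was 1.95-fold higher in SK-MEL-28 (adjusted p 0.000113, edgeR), while PFKP, the platelet-type gene, was 1.20-fold higher with an adjusted p of 0.0259 by edgeR. The call for PFKP was lost under 6 of 9 alternatives. ALDOC went the other way, at 0.162 and 0.291 FPKM in SK-MEL-28, against 12.7 and 15.4 in A375, 50.8-fold lower in SK-MEL-28 (adjusted p 1.63e-06, edgeR). PFKFB3 was at 16.6 and 19.4 FPKM in SK-MEL-28, against 15.6 and 14.1 in A375, 1.36-fold higher in SK-MEL-28 (adjusted p 0.0112, edgeR), and GPI was 1.23-fold higher (adjusted p 0.0128, edgeR). Both calls were lost under 4 of 9 alternatives. PFKFB4 was at 20.3 and 32.4 FPKM in SK-MEL-28, against 7.53 and 10.5 in A375, 3.24-fold higher in SK-MEL-28 (adjusted p 1.33e-05, edgeR), with the overlap with UCN2 described above. TPI1, PGK1, PGAM1 and PKM had log2 differences between 0.05 and 0.14 that did not pass, and that were below 0 when library totals replaced the TMM scaling. That change of scaling moved the median of all genes from -0.03 to -0.20.

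Several genes at the end of the pathway differed. ENO1 was 1.56-fold and LDHA 1.57-fold higher in SK-MEL-28, with adjusted p of 0.000167 and 0.00022 by edgeR. ENO2, at 20.2 and 21.8 against 13.9 and 12.4 FPKM, was 1.79-fold higher (adjusted p 0.000455, edgeR). GAPDH was 1.26-fold lower in SK-MEL-28 (adjusted p 0.00402, edgeR), a call lost in 3 of the 4 fits with 1 library left out and the treatment term dropped. SLC16A3, the lactate exporter of highly glycolytic cells, was at 0.798 and 0.852 FPKM in SK-MEL-28, against 4.06 and 4.28 in A375, 4.48-fold lower in SK-MEL-28 (adjusted p 9.89e-06, edgeR). SLC16A1, at 48.5 and 51.6 against 41.6 and 38.9 FPKM, was 1.40-fold higher in SK-MEL-28 and held 90.1% to 98.4% of the summed FPKM of the transporter pair in the 4 libraries.

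The remaining HIF targets were split between the lines. Those lower in SK-MEL-28 were ADM, NDRG1, CA9, BNIP3 and VEGFA, of which all but BNIP3 and NDRG1 encode secreted or surface proteins. ADM was at 0.065 and 0.126 FPKM in SK-MEL-28, against 10.1 and 8.78 in A375, which is 70.2-fold lower in the edgeR estimate (adjusted p 4.05e-06). NDRG1 was at 0.805 and 0.705 against 9.38 and 11.9 FPKM, 12.4-fold lower, and CA9, at 0.0939 and 0.0910 against 1.17 and 1.09 FPKM, was 8.21-fold lower (adjusted p 4.27e-06 and 0.000172, edgeR). In GENCODE 29, 643 of the 1670 exon bases of CA9 overlap ARHGEF39 on the opposite strand, which had 464 to 1086 counts in the libraries, so reads of the 2 genes cannot be told apart there. VEGFA, at 2.18 and 2.65 against 4.08 and 4.18 FPKM, was 1.53-fold lower (adjusted p 0.00208, edgeR), a call lost with the treatment term dropped and the siLINC00622 library of A375 left out (log2 difference -0.58). ANKRD37 was at 1.34 and 1.21 against 1.43 and 1.77 FPKM and did not pass (log2 difference -0.16, adjusted p 0.531, edgeR).

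Those higher in SK-MEL-28 were MXI1, PDK1, BNIP3L, P4HA1 and KDM3A. MXI1 was at 28.6 and 30.1 FPKM in SK-MEL-28, against 3.09 and 3.75 in A375, 9.65-fold higher (adjusted p 1.58e-06, edgeR). PDK1, at 4.96 and 5.09 against 2.16 and 2.16 FPKM, was 2.61-fold higher (adjusted p 3.17e-05, edgeR). BNIP3L was at 25.1 and 15.6 FPKM in SK-MEL-28 and 12.6 in both A375 libraries, so its log2 difference was 1.16 between the siNC libraries and 0.47 between the siLINC00622 libraries (adjusted p 0.00451 over both, edgeR). That call was lost with the treatment term dropped and either library of A375 left out, where the log2 differences were 0.84 and 0.87. P4HA1 was 1.30-fold and KDM3A 1.22-fold higher, with adjusted p of 0.01 and 0.0316 by edgeR, and the calls were lost under 4 and 7 of 9 alternatives. The paralog of BNIP3L, BNIP3, at 13.6 in both SK-MEL-28 libraries against 26.5 and 26.6 in A375, was 1.74-fold lower in SK-MEL-28 (adjusted p 0.000232, edgeR).

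HIF-1 binds DNA at a core of 5 bases, ACGTG or GCGTG, which reads CACGT or CACGC on the other strand. The window from 250 bases before to 50 bases after the RefSeq start (GRCh38.p14) was searched on both strands for 32 members with an entry. SLC2A3, SLC16A1, BNIP3L, NDRG1 and VEGFA had no entry. It held 1 or more cores in 23 of 32 members (71.9%) and in 48.4% of all 27305 windows of that length. ACGTG on either strand was in 13 of 32 (40.6%) and in 21.6% of all. Members were chosen in part as HIF1A targets, and the windows were not matched for base composition. These shares are thus a description and not a test. A sequence CACGTG counts as ACGTG on both strands. A match is a string of letters and not a measured binding site. The stretches of 30 bases below belong to members with large values above and 1 or more cores. They are shown to set the cores of genes higher and lower in SK-MEL-28 side by side, with each core that lies whole in the stretch in capitals.
HK2, chr2:74834067-74834096, plus strand: aatggGCGTGcgCACGTcactgatccggag
PFKFB4, chr3:48556952-48556981, minus strand: tgagttgggcatGCGTGgtcggaggccggg
PFKL, chr21:44299877-44299906, plus strand: tgctcagggcccGCGTGacattgcacaggt
ALDOC, chr17:28576906-28576935, minus strand: ccccggaggagtCACGTagctctgcgacat
ADM, chr11:10304960-10304989, plus strand: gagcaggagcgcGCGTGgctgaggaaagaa
CA9, chr9:35673898-35673927, plus strand: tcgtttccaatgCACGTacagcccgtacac

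Cores were present on both sides of the line comparison. HK2 and PFKFB4, higher in SK-MEL-28, held 3 cores and 1 core in their windows. ALDOC and CA9, lower in SK-MEL-28, held 5 cores and 1 core. The core of CA9 shown begins 18 bases before the start. The windows of EGLN3 and MXI1, the 2 members with the largest difference towards SK-MEL-28, held 0 cores. So did those of PDK1, HK1, PFKM and PFKP, also called higher in SK-MEL-28, and of SLC16A3, called lower. PGAM1 and TPI1, which were not called, held 0 as well. LDHA and BNIP3 had the most, with 6 cores each.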

How the data were processed

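RNA-Seq was made from 4 melanoma cell samples, 1 per line and treatment, as paired-end reads of poly(A) RNA from a kit that does not mark strand. The submitters' processing notes name HISAT2, HISAT, TopHat2, Bowtie2 and hg19 without roles. The counter and the annotation are not given in the sources used here, so coordinates of genes in the table are not printed. Promoter stretches carry the GRCh38.p14 coordinates of RefSeq. The authors deposited whole-number counts per gene without normalization, CPM values relative to library totals, and FPKM values that equal CPM divided by a gene length, which for 81.7% of 15353 genes was within 5% of the merged exons of GENCODE 29. The 4 columns of TPM were not used.

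Members and lists were chosen with earlier results of these data known. All 37 members are named, LINC00622 as the targeted gene, and from the wider list the genes past 1.5-fold the same way in each line with 50 counts or more. HMOX1, GYS1 and BHLHE41 are named outside this rule, after their values were seen, as are genes that share exon bases with a member. Counts were scaled within each line by TMM on library totals (edgeR 4.0.16, R 4.3.3), with a prior count of 2 for log2 ratios and 95% Clopper-Pearson intervals. Reads carry no molecular identifiers, so the intervals cover counting error only. The fit over 4 libraries was edgeR's quasi-likelihood test with line and treatment as terms, filterByExpr by line and Benjamini-Hochberg adjustment over all genes tested. With so few samples, the p-values measure the spread between these libraries, and the spread used for a gene is drawn in part from all genes. DESeq2 1.42.0 was an alternative, as were other scalings, filters, prior counts, models without the block and, for the lines, fits with 1 library left out and no treatment term. Listed pseudogenes made up 0.407% to 0.457% of the summed counts for GAPDH, 1.11% to 1.33% for TPI1 and 4% to 8.36% for LDHB. Scripts were tested on simulated data and ran in Python 3.11.15.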

Additional observations from a re-analysis of the deposited data

How the results depend on the processing

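Within the lines, the deposited FPKM with a pseudocount of 1 left 2 members past the limit upwards in SK-MEL-28 and 0 in either direction in A375, where the pseudocount shrinks low genes. At least 50 counts also left 2 upwards in SK-MEL-28, without ALDOC and ADM. The lower fold limit gave 4 upwards and 2 downwards in A375. The shares of all genes under these changed settings are not given here, and those above belong to the main setting. Over both lines, 2 members were higher with siLINC00622 by DESeq2's Wald test and 2 by edgeR with no filter on low counts, SLC2A3 and PFKFB4 each time. The cause was not tested. The other alternatives for that fit called 0 members. In that fit, and with no call in either setting, the sign of log2 values near 0 turned for PKM (-0.014), SLC16A1 (-0.0034) and HK2 (-0.022) with library totals, for ENO1 (0.0055) and ADM (0.11) with DESeq2, for HK2 (-0.0017) at 50 counts and for ENO2 (0.028), SLC2A1 (0.019) and EGLN3 (0.11) with no line block. For the lines, library totals turned PKM (-0.025), PGK1 (-0.029), TPI1 (-0.12) and PGAM1 (-0.064), none of them called. With the same totals HIF1A was called lower in SK-MEL-28, at -0.22 (adjusted p 0.0401, edgeR). Leaving out 1 library, with the treatment term dropped, gave 11 to 14 members higher and 7 to 11 lower in SK-MEL-28. The number higher was 11 without the siNC or the siLINC00622 library of A375, and the number lower was 7 without the latter. The shares of all genes called in these fits are not given here. Values of 3 members uncalled in the main fit crossed 0 over the fits with 1 library left out. These were HIF1A from -0.20 to 0.10, ALDOA from -0.017 to 0.48 and ANKRD37 from -0.32 to 0.0098. No paired analysis by replicate number was possible because the labels carry none, and the line served as the block. Depth limits CA9, ADM and ALDOC in SK-MEL-28, whose counts were at most 26.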

Other observations

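On the wider list, HMOX1 had a larger ratio in SK-MEL-28 than any of the 37 members did. The 3 genes named here were picked after their values were seen. HMOX1, which encodes the heme-degrading enzyme heme oxygenase 1, had 11088 counts under siNC and 25430 under siLINC00622 in SK-MEL-28, a log2 ratio of 1.17. In A375 it had 1430 and 2067 counts, a log2 ratio of 0.32. GYS1, the glycogen synthase of most tissues, had 2987 and 4826 counts in SK-MEL-28, against 3205 and 5295 in A375, with log2 ratios of 0.66 and 0.51 and an adjusted p of 0.0684 by edgeR. BHLHE41, a transcriptional repressor, had log2 ratios of -0.52 and -0.80, on 6292 and 4481 counts in SK-MEL-28 and on 90 and 59 in A375. None of these genes passed an adjusted p of 0.05 for the treatment over both lines in the edgeR fit, and DESeq2 called 3 of the list's genes, HMOX1, GYS1 and BHLHE41.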
